A study of Canis lupus familiaris with 33 samples.

Results

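Of the 450791 autosomal regions of the dog genome that carried a methylation peak in any of 11 beagle tissues, 59334 had a peak in 5, 6 or 7 of the tissues. This is 13.2% of the regions (95% Wilson interval 13.1% to 13.3%, which covers counting error only). These intermediate regions, called members below, were chosen by that number alone. All peaks of the 11 deposited lists on chromosomes 1 to 38 were merged into union regions wherever they shared 1 base or more. A tissue counted as present in a region when its list had a peak there. Which tissues are present, and the fold and width of the peaks, come from the same peaks that were counted. These values are therefore given as a description, and nothing below rests on a test of them.

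The lists came from MBD-seq of adult, healthy beagles, 1 male and 2 female by the labels although the sample titles carry 4 animal names, given alfaxalone and KCl at euthanasia and no other treatment that the labels name. Animal jj8 is labelled male in its MBD libraries and female in its input libraries, and groups were kept as labelled. The 11 tissues were 2 brain parts (cerebrum and cerebellum), 4 digestive organs (stomach, colon, liver and pancreas), lung, kidney, spleen, ovary and mammary gland. Each tissue had 2 MBD libraries and 1 input library of uncaptured DNA, but a single peak list, so there is no spread between replicates within a tissue and the tissue is the unit throughout. Each list stands for a whole tissue with all its cell types, in which fewer methylated cells and less methylation per cell cannot be told apart. The tissue names were not checked against marker genes, since genes at the peaks were not analysed here.

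In vertebrates DNA methylation sits mostly on cytosines of CpG dinucleotides, where it is laid down and copied by DNA methyltransferases. Most CpGs are methylated in every tissue, active promoters and many CpG islands are kept free of it, and enhancers and other regulatory elements lose it in the cell types that use them. MBD-seq captures sheared DNA on beads that carry a methyl-CpG-binding protein domain. Here the captured DNA was eluted in steps of rising salt, and the fractions of the highest salt were sequenced, which favours fragments with many methylated CpGs. A region without a peak may therefore still be methylated, at fewer CpGs or in fewer cells.

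The members were the trough of a U-shaped distribution. There were 21099 regions in 5 lists, 19440 in 6 and 18795 in 7, the lowest count of any number of lists. Just outside the rule, 25167 regions had a peak in 4 lists and 20844 in 8, while 82092 had a peak in 1 list and 121528 in all 11. The members covered 24.0 Mb, or 8.72% of the bases in union regions, against 55.3% for the regions of all 11 lists.

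Members were close to the typical union region in width. Their median was 336 bases, against 347 bases over all autosomal union regions, with 10% under 282 and 10% over 627 bases, and the range ran from 224 to 2706 bases. The median was 330 bases with 5 lists, 338 with 6 and 341 with 7, next to 321 with 4 and 351 with 8. Regions of 1 list had a median of 245 bases and regions of all 11 lists 798 bases. In 57498 members (96.9%) each present tissue had exactly 1 peak. In 97.8% of members at least 1 base was covered by every present tissue, and this shared part had a median of 201 bases. The other 1276 members were chains of peaks in which no base was common to all present tissues.

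Peaks in members were weaker than most peaks of their own lists. The deposited signal value of each peak, read as a fold enrichment from its column and range since no header names it, was divided by the median fold of its list, and the result is called the normalized fold, so that 1 is a typical peak of that tissue. The median normalized fold over the present tissues was 0.74 in the median member, with 10% of members under 0.61 and 10% over 0.92. It was 0.72, 0.75 and 0.76 with 5, 6 and 7 lists, 0.72 with 4 and 0.80 with 8, and 1.47 in regions of all 11 lists. The weakest present peak had a median of 0.54 and the strongest a median of 1.08. In 37464 members (63.1%) at least 1 tissue reached the median of its list, against 59.3% of all autosomal union regions, 40.6% of those in 4 lists and 84.1% of those in 8. Every present tissue did so in 15 members (0.0253%). The share was 12% over all autosomal union regions, where 47914 of the 54157 such regions were in all 11 lists, but 0.0715% with 4 lists and 0.134% with 8. That number depended on the rule for presence, with 70 members (0.126%) for lists of equal size and 3754 (5.40%) where a tissue had to cover 50% of the region. Under a stricter threshold, in which the weaker 50% of every list by fold was dropped, 264 of the 59334 members (0.445%) still had a peak in at least 5 lists, and 21953 (37.0%) had none left. The stricter lists gave 40228 regions of 5 to 7 lists of their own, nearly all at other places.

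**Figure D1:**
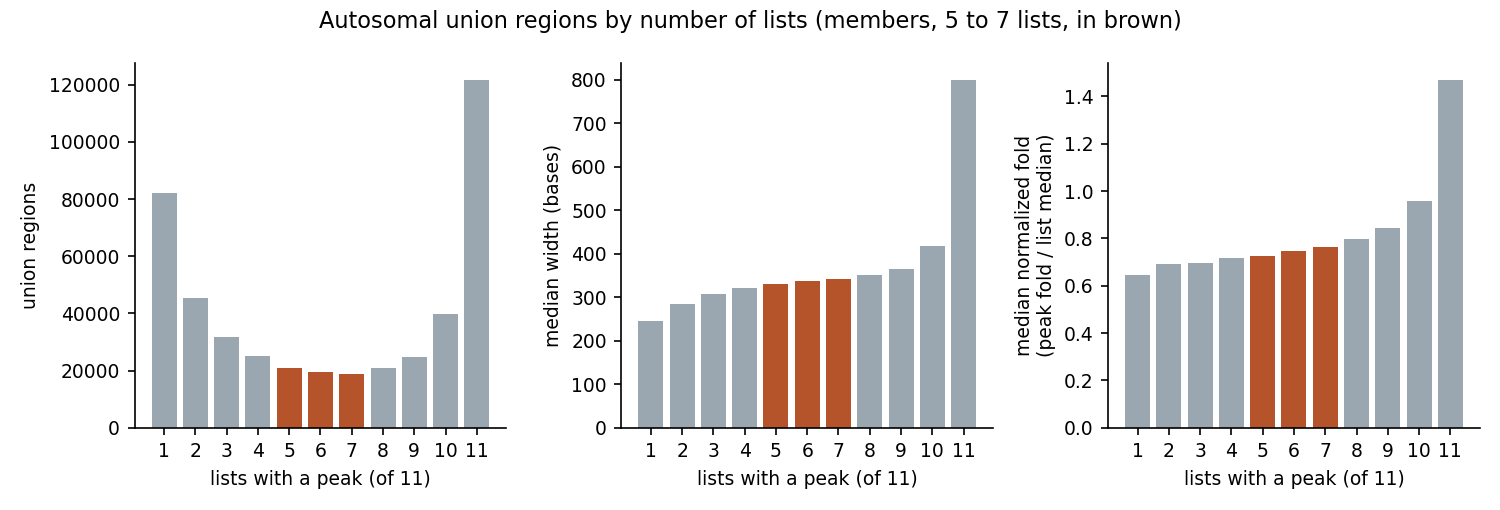
Number, median width in bases and median normalized fold of autosomal union regions (bars) against the number of lists with a peak, members in brown. Counts fall from 82092 in 1 list to 18795 in 7 and rise to 121528 in 11, while width and fold rise along the whole axis.

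Which tissues made up the 5 to 7 was far from even. There are 1254 possible combinations of 5, 6 or 7 tissues, and 1246 occurred. An even spread would put 47.3 members in each. Instead the median was 28, 162 combinations held 50% of all members, and the 10 most frequent held 14.1%.

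The combinations that recurred most were built on 4 tissues, cerebellum, cerebrum, kidney and ovary, which have the 4 longest lists. Among the 4 most frequent combinations of each size, all 12 held cerebrum, kidney and ovary, and 11 also held cerebellum. None of the 12 held colon or stomach. The most frequent combination was cerebellum, cerebrum, kidney, ovary and spleen, with 1266 members. The same 4 tissues with lung held 1199 members and with liver 1186. The fourth of this size, cerebrum, kidney, liver, lung and ovary, was the only one of the 12 without cerebellum and held 641.

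Of the combinations of 6, the 4 tissues with liver and lung were the most frequent, with 1253 members. With liver and spleen there were 593, with mammary gland and spleen 472, and with lung and spleen 407. Of the combinations of 7, the 4 tissues with liver, lung and spleen held 599 members, with liver, lung and mammary gland 514, with liver, lung and pancreas 377, and with liver, mammary gland and spleen 357. The 12 combinations together held 8864 members (14.9%), and each of them occurred on all 38 autosomes.

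Their mirror images did not recur in the same way. The complement of the most frequent combination (colon, liver, lung, mammary gland, pancreas and stomach, without the other 5) occurred 32 times, and that of the largest combination of 6 occurred 27 times. Across the 12 named combinations the complements numbered 11 to 62, around the median of 28 for a combination, and those of the combinations of 7 hold 4 tissues and so lie outside the rule. In all, 17239 members (29.1%) had peaks in all of cerebellum, cerebrum, kidney and ovary, where the product of the 4 shares would give 13762, and 1411 (2.38%) had a peak in none of them, where it would give 488. The purest form of the latter, a peak in each of the other 7 tissues, held 188 members and ranked 40 among all combinations. Its complement, the 4 tissues alone, lies outside the rule and held 4659 regions.

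**Figure D2:**
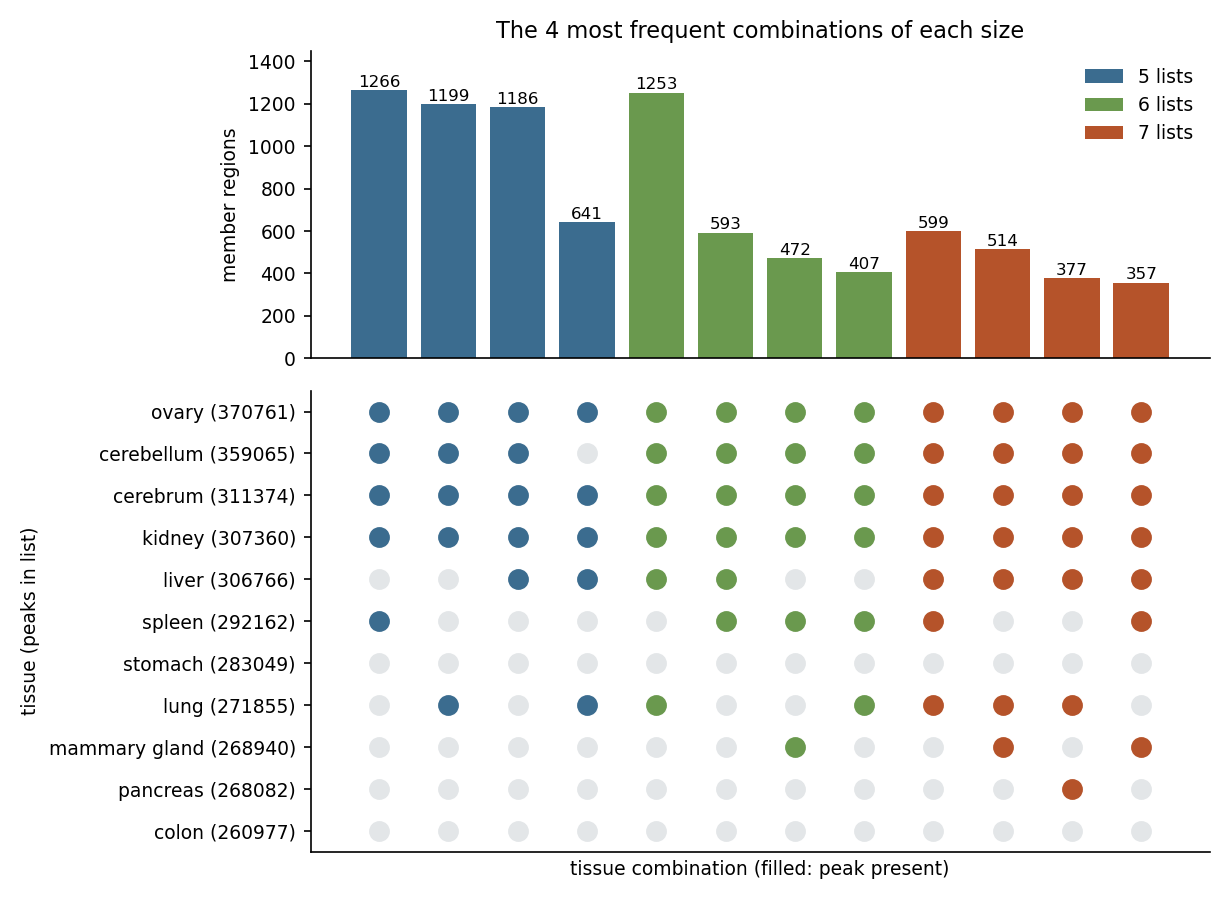
Members (bars, count above each) in the 4 most frequent combinations of 5, 6 and 7 tissues, with the tissues present shown as filled dots and tissues ordered by the number of peaks in their list. Cerebrum, kidney and ovary are filled in all 12 combinations, and the rows of stomach and colon are empty.

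The share of members with a peak of a tissue was mostly higher where its list was longer. A peak of ovary was present in 76.6% of members, of kidney in 69.1%, of cerebrum in 68.3%, of cerebellum in 64.2% and of liver in 61.5%. The corresponding shares over all autosomal union regions were 74.2%, 61.8%, 62%, 69% and 58.1%. Cerebellum, the second longest list, was the only one of these 5 with a lower share in members than in all regions.

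Lung was present in 50.7% of members against 52.9% of all regions, spleen in 49.8% against 53.6%, mammary gland in 44.4% against 51.6% and stomach in 43.5% against 51.7%. Pancreas (35.0% against 48.4%) and colon (33.1% against 48.3%) had the lowest shares, 13.5 and 15.2 percentage points below their background. Over the 11 tissues, peak number and share of members had a Pearson's r of 0.853 and a Spearman's rho of 0.918. Without cerebellum and ovary, whose lists are the farthest from the median length, r was 0.925 and rho was 0.9. Peak numbers and shares come from the same lists, so this is a description. With all lists cut to the 260977 peaks of highest fold, the length of the colon list, 33679 members (56.8%) still had a peak in 5 to 7 lists and 25488 (43.0%) had one in 1 to 4. Over the 55375 regions in 5 to 7 of the equal lists, the shares drew together to between 49.5% in pancreas and 61.0% in kidney, and ovary fell to 55%.

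Cerebellum and ovary behaved unlike the other tissues as the number of lists grew. From regions of 4 lists to regions of 8, the share with a cerebellum peak went from 61.7% to 67.4% and that with an ovary peak from 72.7% to 81.3%. Over the same steps the share of colon went from 12.1% through 21.3%, 32.9% and 46.5% to 61.6%, and that of stomach from 16.9% to 75%. Peaks of cerebellum and ovary were also the strongest in members relative to their own lists. The median normalized fold was 0.91 in cerebellum and 0.88 in ovary, between 0.71 and 0.78 in kidney, cerebrum, lung, spleen and liver, and between 0.62 and 0.67 in mammary gland, pancreas, colon and stomach. Cerebellum was the strongest tissue in 38.7% of the members where it had a peak and ovary in 35.3%, against 4.43% for colon. In regions of all 11 lists the tissues lay close together, between 1.43 in pancreas and 1.55 in cerebellum. Before division by the list median, the fold of member peaks had medians from 4.47 in lung to 6.12 in cerebellum. It was 5.78 in ovary, 5.44 in stomach and 5.15 in colon.

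**Figure D3:**
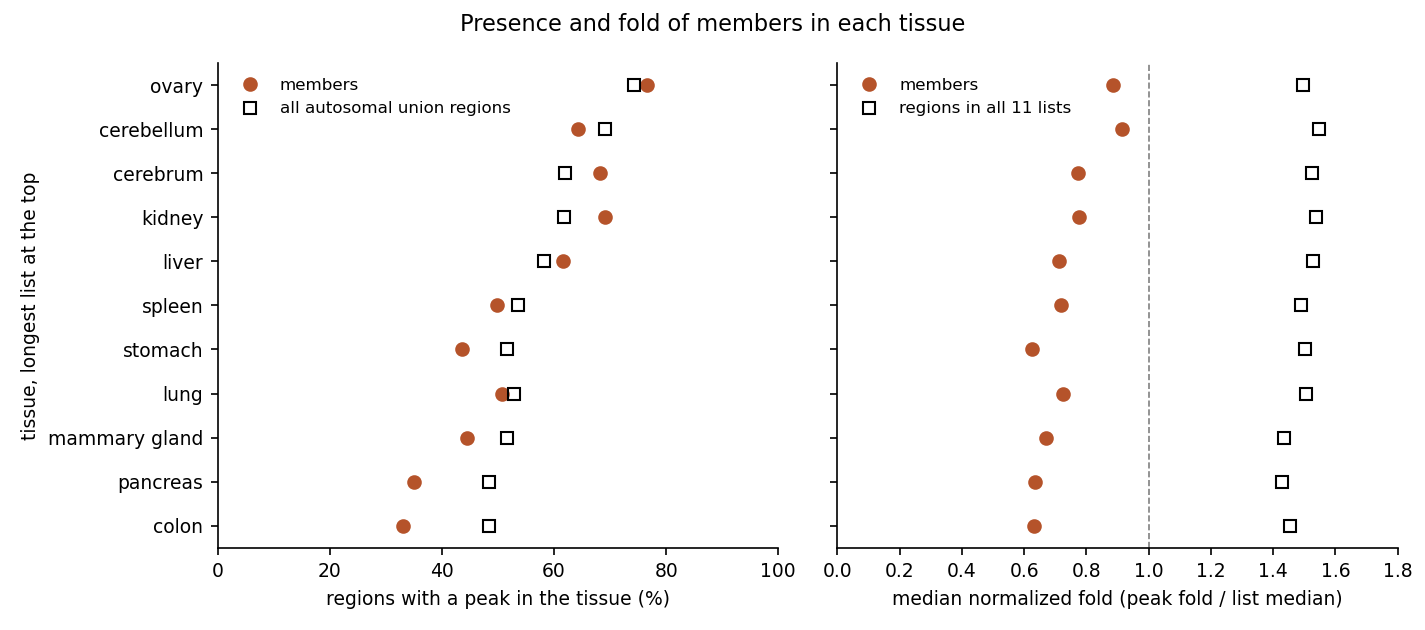
Left, percent of regions with a peak in each tissue, for members (filled) and all autosomal union regions (open). Right, median normalized fold of the peaks of members (filled) and of regions in all 11 lists (open), with the dashed line at the list median of 1; tissues are ordered by list length, and every filled point on the right lies below 1.

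The labels give an animal and a sex for each library. By the titles, one female gave an MBD library in every tissue, and the same animal also gave the input DNA of ovary, kidney, pancreas and mammary gland, while jj8 gave that of the remaining 7 tissues. The former 4 tissues had a share of members of 56.2% ± 19.8 (SD, n = 4), and the 7 tissues had 53.0% ± 12.5 (SD, n = 7). Tissues with 2 female MBD libraries (colon, mammary gland, ovary and stomach) had 49.4% ± 18.8 (SD, n = 4), and tissues with 1 library of each sex had 56.9% ± 12.4 (SD, n = 7). The groups overlapped in both cases. These shares come from the same peaks that the rule counted, so no statement is drawn from a test of them. The lists also fell into 2 classes by their shortest peak. In the lists of the 4 digestive organs, spleen and cerebellum it was shorter than 200 bases, and these 6 tissues had shares of 33.1% to 64.2%, and the other 5 had 44.4% to 76.6%; the part of this class in the shares was not tested.

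To see which tissues went together, given their shares, the members with peaks of both tissues of a pair were divided by the number that the product of the 2 shares gives. Because each member holds a fixed number of tissues, this ratio lies below 1 for a typical pair, with a median of 0.935 over the 55 pairs. It exceeded 1 in 13 pairs. Colon and stomach had the highest ratio, 1.24, with 10597 members against 8545 from the product. Pancreas and stomach followed at 1.21, mammary gland and stomach at 1.12, and cerebellum and cerebrum at 1.12. All 6 pairs within cerebellum, cerebrum, kidney and ovary were between 1.03 and 1.12. By the titles, colon and stomach shared an MBD animal, labelled female, that gave no library of any other tissue. Mammary gland and ovary shared another such female and had a ratio of 0.955. Among the tissues with 2 female MBD libraries, colon and mammary gland had 1.12, while the pairs with ovary had 0.822 to 0.955. The part of MBD animal or sex in these ratios was not tested.

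The lowest ratios were those of the brain with the gut. Cerebellum and colon had 0.724, cerebrum and colon 0.765 and cerebrum and stomach 0.812, and kidney and colon had 0.817. Colon and spleen had 1.08, and mammary gland and pancreas 0.95. Liver and lung had 1.07, the only pair over 1 that included either of them. With equal list sizes the highest ratio passed to cerebellum and cerebrum, 1.17, while colon and stomach fell to 1.07. All 13 pairs over 1 were again over 1, and cerebellum and colon were again the lowest pair, at 0.753. Ovary and stomach came next at 0.790, below cerebrum and colon at 0.821. Under the stricter threshold the highest pair was also cerebellum and cerebrum, at 1.09, and with 50% coverage it was pancreas and stomach, at 1.34. With the full lists, the mean ratio was 0.964 over the 25 pairs of the same class of shortest peak and 0.925 over the 30 pairs of different classes. It was 0.934 over the 27 pairs that shared an input animal and 0.951 over the 28 that did not.

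**Figure D4:**
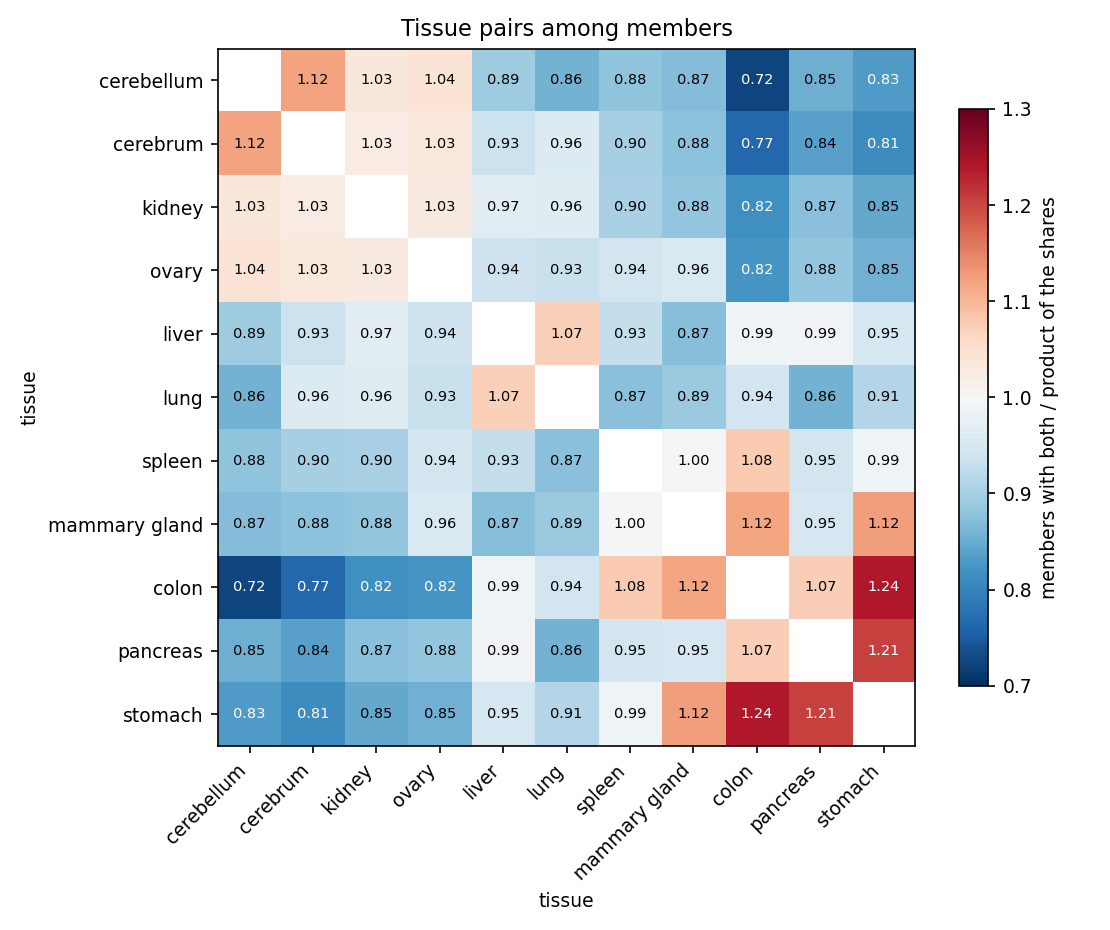
Members with a peak in both tissues divided by the product of the 2 shares, for the 55 pairs of tissues (red above 1, blue below 1). All 6 pairs of cerebellum, cerebrum, kidney and ovary are above 1, as are colon and stomach with each other and each with mammary gland and pancreas, with 0.724 for cerebellum and colon as the lowest value.

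The same opposition showed when the brain tissues (cerebellum and cerebrum) were set against the digestive ones (colon, liver, pancreas and stomach). Both brain lists had a peak in 29129 members (49.1%), 1 of them in 20350 and none in 9855 (16.6%). All 4 digestive lists had a peak in 2671 members (4.50%) and none had one in 6220 (10.5%). Members with both brain tissues and no digestive tissue numbered 5301, or 1.74 times the product of the margins. Members with all 4 digestive tissues and no brain tissue numbered 1568, or 3.53 times that product, and 220 had all 6 (0.168 times). Part of this follows from the rule, since a member with more of one group has room for fewer of the other. The 5301 brain members had a median normalized fold of 0.76 and a median width of 363 bases, and the 1568 digestive ones had 0.77 and 336 bases. With equal list sizes the counts were 2592 and 2816, and the ratios 2.17 and 2.46. The 2 groups leave room for different numbers of combinations of the remaining tissues, so their counts cannot be set against each other directly. With equal lists, 297 regions had all 6.

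Equal lists also changed the ranking of combinations. Cerebellum, cerebrum, kidney, lung and ovary then came first with 478 members, and the 7 tissues other than cerebellum, cerebrum, kidney and ovary came second with 455, up from 188. The combination that led with the full lists, that of the 4 tissues with spleen, held 367. Under the stricter threshold the first was cerebellum, cerebrum, kidney, liver and ovary with 336. A combination with all of cerebellum, cerebrum, kidney and ovary came first in each of these rankings.

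For each of the 2 most frequent combinations of each size, the member whose weakest peak was the strongest shows the pattern at its clearest. Coordinates are those of the deposited lists, on build CanFam3.1 by the submitters' processing notes. For cerebellum, cerebrum, kidney, ovary and spleen it lay on chromosome 9 at 17031129 to 17031497. The normalized fold there was 2.06 in ovary, 1.44 in cerebellum, 1.21 in kidney, 1.09 in cerebrum and 0.99 in spleen. The other 6 tissues had no peak, and the nearest region of all 11 lists was 81671 bases away. For the combination with lung in place of spleen it lay on chromosome 22 at 36604268 to 36604593, with 1.63 in cerebellum, 1.53 in kidney, 1.26 in cerebrum, 1.04 in ovary and 1.00 in lung.

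Among combinations of 6, the one with liver and lung peaked on chromosome 1 at 2438236 to 2438573. Its normalized folds ran from 0.98 in ovary to 1.43 in cerebrum, and a region of all 11 lists began or ended 133 bases away. That with liver and spleen was on chromosome 27 at 14769124 to 14769483, from 0.86 in kidney to 1.40 in cerebellum. The combinations of 7 had theirs on chromosome 6 at 20721329 to 20721763 (with liver, lung and spleen; 0.85 in lung to 1.22 in kidney) and on chromosome 18 at 40872122 to 40872683 (with liver, lung and mammary gland; 0.87 in mammary gland to 1.42 in liver). In all 6 the peaks of the present tissues overlapped, over 233 to 370 bases.

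The members with the strongest peaks in every present tissue were of mixed kinds, and the first 2 lacked all of cerebellum, cerebrum, kidney and ovary. The first lay on chromosome 25 at 37330612 to 37331282. It had a normalized fold of 2.54 in pancreas, 1.75 in stomach, 1.72 in colon, 1.65 in spleen, 1.59 in liver, 1.47 in lung and 1.297 in mammary gland, and no peak in cerebellum, cerebrum, kidney or ovary. The deposited folds behind these values were 20.1 in pancreas, 15.3 in stomach, 14.0 in colon, 10.8 in spleen, 11.3 in liver, 9.08 in lung and 8.95 in mammary gland. This is the combination that was second with equal lists. The second, on chromosome 5 at 12650930 to 12651439, had 3.03 in spleen, 2.22 in colon, 1.53 in mammary gland, 1.41 in lung, 1.297 in liver and 1.26 in stomach. It lacked pancreas besides the same 4 tissues.

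The third, on chromosome 5 at 62634392 to 62634779, had its highest value in kidney, 2.18, followed by 1.85 in liver and 1.71 in lung. Colon, pancreas, stomach and cerebrum also had a peak there, the lowest in cerebrum at 1.09. The fourth lay on chromosome 7 at 14456989 to 14457358, in colon, liver, mammary gland, ovary, pancreas and stomach, with 1.07 to 1.38. The fifth, on chromosome 30 at 4318210 to 4318574, was the only one of the first 10 with a cerebellum peak. There cerebellum had 1.72, ovary 1.42, kidney 1.11, cerebrum 1.07 and pancreas 1.06.

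The sixth to the tenth lay on chromosome 1 at 20304585 to 20305391, chromosome 16 at 58456110 to 58456886, chromosome 11 at 15744178 to 15744696, chromosome 37 at 24627359 to 24627854 and chromosome 28 at 914237 to 914725. All 5 had peaks in liver and stomach and none in cerebellum. Their weakest peaks were 1.03 to 1.05 and their strongest were 1.92 in stomach, 1.87 in colon, 2.13 in spleen, 1.36 in stomach and 2.77 in mammary gland, in that order. Over all 15 members whose every peak reached its list median, stomach and liver were present in 12 each, colon in 11 and cerebellum in 4. No brain tissue was present in 9 of them. All of cerebellum, cerebrum, kidney and ovary were present in 3 of the 15, among them the region on chromosome 22 described above, and none of these 4 tissues in another 3. The 15 had 15 different combinations.

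**Figure D5:**
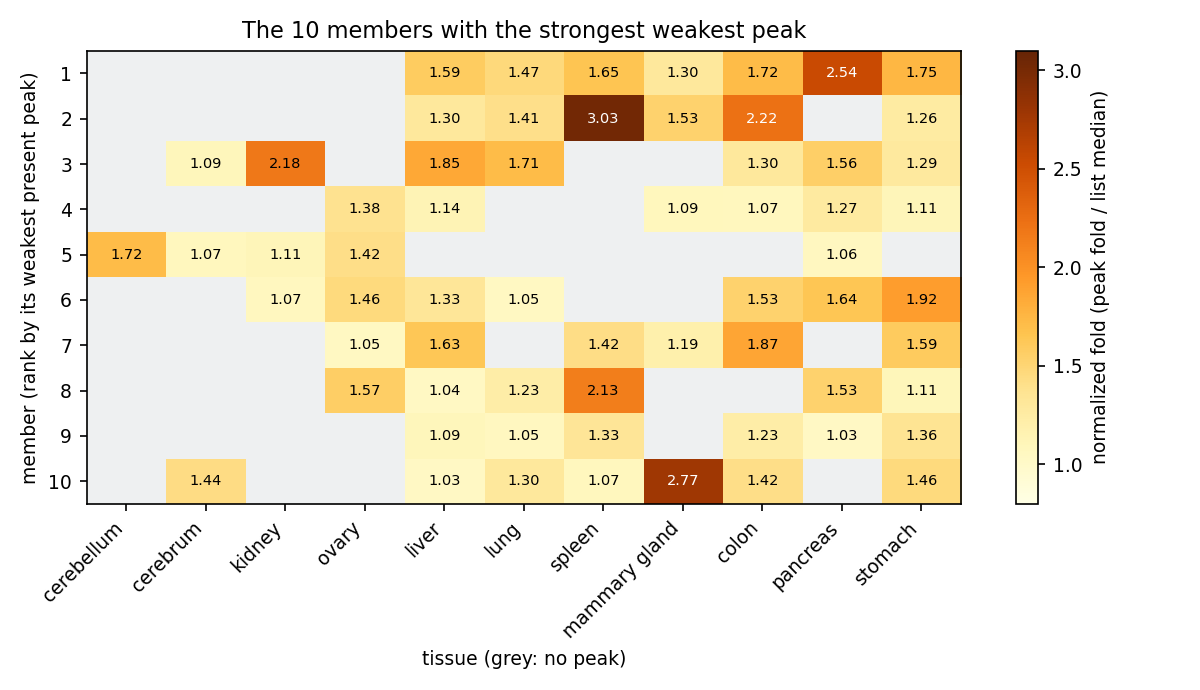
Normalized fold in each tissue (columns) for the 10 members whose weakest present peak was strongest (rows, ranked); grey cells have no peak. Liver and stomach are filled in 9 of the 10 rows and cerebellum in 1.

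A less strict view gave both kinds side by side. In 2232 members (3.76%) the median over the present tissues reached 1, against 29.4% of all autosomal union regions, 3.21% of those in 4 lists and 7.78% of those in 8. Among these the most frequent combination was again the 4 tissues with spleen (83 members), and the second was the 7 tissues without cerebellum, cerebrum, kidney and ovary (59 members). Colon was present in 38.5% of these members, cerebellum in 68.0%, cerebrum in 71.5%, kidney in 69.2% and ovary in 70.3%. Among all members these shares were 33.1%, 64.2%, 68.3%, 69.1% and 76.6%.

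Members were spread over the genome much as all union regions were. They made up from 12.2% (chromosome 34) to 15.3% (chromosome 32) of the union regions of a chromosome, with a median of 13.4%. Per Mb between the chromosome start and the last peak, there were 18.5 on chromosome 32 to 41.9 on chromosome 26, with 26.9 over all autosomes. Across the 38 autosomes, members per Mb and all union regions per Mb had a Pearson's r of 0.978. This is a description across chromosomes of the same lists.

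Along chromosomes, union regions of every kind were dense at the last end, and members made up a smaller share of them at both ends. The last 10% of the length of the chromosomes held 13.0% of members and 20.0% of the regions of all 11 lists, where 14.7% of all union regions lay. The first 10% held 10.9% of members against 13.5% and 11.6%. Within the last 10%, 11.6% of union regions were members, and in the 8 intervals of equal length between the ends this was 13.2% to 13.9%. Dog autosomes are acrocentric, with the centromere at one end.

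The most frequent combination had 19.0% of its regions in the last 10%, above the 13.0% of all members. The combinations that joined the 4 tissues with mammary gland and spleen, or with liver, mammary gland and spleen, had 18.4% and 19.9% there. The other 9 named combinations had between 11.7% and 14.3%. By tissue, the share of members with a stomach peak was 38.7% in the last 10% and 44.2% elsewhere, and with a lung peak 47.5% and 51.2%. For cerebrum it was 71.2% and 67.8%. For liver it was 59.3% and 61.9%, and the other 7 tissues differed by less than liver did.

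The nearest region of all 11 lists was 5523 bases away in the median, and 20.0% of members lay within 1 kb of such a region, against 15.6% of the regions in 1 list and 22.4% of those in 8 to 10 lists. Where a tissue lacked a peak in a member, it had a peak outside the member but within 1 kb of it in 30.05% of cases and within 500 bases in 16.5%. The gap to the next member along the chromosome had a median of 20290 bases.

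Neighbouring members resembled each other slightly. Of 59296 pairs of successive members, 0.671% had the same combination, where the frequencies of the combinations would give 0.371%. They had the same state, peak or no peak, in 6.43 of 11 tissues on average, where the shares would give 5.97. This similarity fell with distance. It was 7.11 tissues at a gap under 500 bases, 6.63 from 1 to under 5 kb and 6.35 at 50 kb or more. With equal list sizes 0.309% of successive members had the same combination, where the frequencies would give 0.140%, and with the stricter threshold 0.311%, where they would give 0.148%.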

How the data were processed

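The 33 libraries (22 MBD, 11 input) are represented here by 11 narrow-peak lists, 1 per tissue. Per the labels, both MBD libraries of a tissue share a list. How they were combined, the aligner, the peak caller and the filters are not given in the sources used here; the build is CanFam3.1, per the submitters' processing notes. The fold used is the deposited signal value, read as an enrichment ratio only from its column and range; no header states this or its control. The −log10 p-values and q-values and the score (10 times the −log10 p, cut to a whole number) are as deposited by the authors and were not used for selection. Read depth behind the peaks is unknown. No per-sample columns beyond these lists were left unused.

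Peaks on autosomes 1 to 38 were merged, and for each region and tissue the highest fold was divided by the median of the whole list. By their titles the inputs came from 2 animals, the female with an MBD library in every tissue and jj8; jj8 carries different sex labels in MBD and input libraries. Exact two-sided permutation tests planned on the shares by input animal and sex were run (p = 0.727 and 0.439). Nothing is drawn from them, since the shares come from the same peaks that the rule counted. The named regions and combinations follow a rule: the 4 most frequent combinations of each size, the member with the strongest weakest peak for the first 2 of each size, and the first 10 such members overall. The members and lists of tissues were chosen with earlier results of these data known. Gene lists, gene starts and CpG content were to be used only with an annotation or genome of the same build and were not analysed here. The steps were tested on simulated lists of well separated regions whose peaks shared a centre, where all 616 simulated members were recovered. Chained peaks, close neighbours and several peaks of a tissue in 1 region were not simulated. Python 3.11.15, numpy 2.4.6, pandas 2.3.3, scipy 1.17.1 and matplotlib 3.10.9 were used.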

Additional observations from a re-analysis of the deposited data

Results flagged for a closer look

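Chromosome X, which the comparisons above did not use, also carried regions with a peak in 5 to 7 lists. Of its 21367 union regions, 3203 (15%) had a peak in 5, 6 or 7 lists. The 95% Wilson interval, 14.5% to 15.5%, covers counting error only. Ovary was present in 85.2% of them (77.1% of all X union regions), cerebellum in 81.4% (78.9%), cerebrum in 79.1% (66.5%) and mammary gland in 63.3% (54.7%). Lung was present in 56.7% (52.5%), spleen in 55.3% (53.3%), liver in 52.1% (52.3%) and stomach in 42.9% (48.3%). Kidney was present in 36.1% (45.2%), pancreas in 24.1% (41.5%) and colon in 20.0% (39.6%). On autosomes kidney was present in 69.1% of members and stomach in 43.5%. The most frequent combination on X, with 75 regions, was cerebellum, cerebrum, mammary gland, ovary and spleen. By the labels, ovary, mammary gland, colon and stomach had 2 female MBD libraries and the other 7 tissues 1 of each sex. Of these 7, kidney and pancreas had an input of the female with an MBD library in every tissue. The rest of the 7 had an input of jj8. The part of sex or input animal in these shares on X was not tested.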

How the results depend on the processing

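The number of members kept within 1.5 times of 59334 under the stricter threshold, equal lists, 50% coverage, wider merging and with X, and it moved with the bounds, to 105345 for 4 to 8 lists and 19440 for exactly 6. Leaving out each tissue in turn (5 or 6 of 10 lists, a narrower rule) gave 39963 to 45504, and leaving out cerebellum and ovary (4 or 5 of 9 lists) gave 42203. The stricter threshold, equal lists and 50% coverage gave 336, 478 and 1942 members in the most frequent combination (cerebellum, cerebrum, kidney and ovary with liver in the first and with lung in the others) and 316, 367 and 1382 in the one that led with 1266, and moved the share with an ovary peak from 76.6% to 64.1%, 55% and 78.0%, and the ratio of colon and stomach from 1.24 to 1.04, 1.07 and 1.29. They moved the median width from 336 to 416, 341 and 354 bases, the median normalized fold from 0.74 to 1.24, 0.82 and 0.79, the share in the last 10% of chromosomes from 13.0% (all regions 14.7%) to 14.0% (16.4%), 12.7% (15.2%) and 13.8% (14.7%), and that of successive members with 1 combination from 0.671% (0.371% from the frequencies) to 0.311% (0.148%), 0.309% (0.140%) and 0.975% (0.486%). For the first 10%, 10.9% (all regions 11.6%) became 11.9% (12.2%) with the stricter threshold and 11.3% (11.6%) with 50% coverage. Among the 15 members whose every peak reached 1, no combination occurred more than 1 time and ovary was present in 53.3%. The share of such members, 0.0253%, was 0.126% with equal lists and 5.40% with 50% coverage, and 0% at a limit of 1.5. The width was 201 bases for the shared part alone. The fold was 0.78 as a mean over the present tissues and 0.58 relative to list means. Neighbours within 5 kb shared a combination in 0.929% of pairs. The difference between input animals, 3.23 percentage points, turned to −1.69 without cerebellum and ovary; the cause of these shifts was not tested. The alternatives on gene starts and CpG content were not run. No paired analysis was possible because each tissue has a single list, and for the same reason no MBD library could be left out.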

Other observations

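Runs of members with the same combination were rare. Successive members within 5 kb of each other shared a combination in 97 runs, and 1 of these held 3 members. It lay on chromosome 1 at 787444 to 791897, spanned 4454 bases, and had peaks in cerebrum, colon, lung, mammary gland, ovary and spleen, with a median normalized fold of 0.76 and a highest of 1.08.

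Liver and lung were present together in 19816 members (33.4%) and absent together in 12561 (21.2%), where the product of the shares gives 18508 and 11253. For colon, pancreas and stomach the counts were 4526 with all 3 and 17456 with none, where the product gives 2987 and 14585. Of the members without a peak of liver, and of those without one of lung, 27.3% had such a peak within 1 kb, and of those without one of ovary 37.1%.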
